A study of Homo sapiens with 16 samples.

Results

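The genes described here encode the acid-sensing ion channels, ASIC1 to ASIC4, and the plasma membrane calcium pumps, ATP2B1 to ATP2B4. They are 8 of the 27037 genes in the table of counts, found by their symbols. These 2 families were chosen from the same data, because ASIC4 and ATP2B2 were among the genes with the largest increases under palbociclib alone, so for the comparison of palbociclib with vehicle the values and the count of members past the thresholds are given below as a description, with no p-value. All 8 genes passed the filter on low counts that left 15415 genes for testing.

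RNA was measured in SK-N-BE(2)C, an established human neuroblastoma cell line, by sequencing of polyadenylated RNA. Cells received vehicle (the DMSO group), retinoic acid at 10 µM (RA), palbociclib at 1 µM (PB) or both drugs at those doses (PB+RA), with 4 samples in each group, 16 in all. Palbociclib inhibits the cyclin-dependent kinases CDK4 and CDK6, which drive cells out of G1, and retinoic acid is a ligand of nuclear receptors that is used to differentiate neuroblastoma cells. Per the study's methods the 4 samples of a group were biological replicates, all from this 1 line, so p-values measure the spread between cultures of 1 cell line.

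Acid-sensing ion channels are sodium channels of the degenerin family that assemble as trimers and open when protons bind outside the cell. ASIC1 carries most proton-gated current in central neurons, ASIC3 is known from sensory neurons, ASIC2 joins ASIC1 in mixed channels, and ASIC4 forms no proton-gated channel by itself. Plasma membrane calcium pumps use ATP to move calcium out of the cell and are stimulated by calmodulin. ATP2B1 and ATP2B4 are found in most tissues, whereas ATP2B2 and ATP2B3 are fast pumps found mainly in neurons and, for ATP2B2, in the hair cells of the inner ear.

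Several members start at more than 1 place, which matters for reading a count per gene, since reads from all starts are added together. RefSeq on GRCh38.p14 gave promoter windows, from 250 bases before to 50 bases after a start, for 7 of the 8 members and 14 starts in all. ASIC4 had no entry. Windows of ATP2B2 and ASIC1 are shown, the only members with a window whose starts lay far apart. Capitals mark matches on either strand to AGGTCA, the core bound by 1 partner of a retinoic acid receptor dimer, to TTTCCCGC and TTTGGCGC, forms of the E2F site, or to CAGCTG, an E-box. ATP2B2 lies on the minus strand, where start 1 is chr3:10708067-10708366, start 2 is chr3:10619912-10620211 and start 3 is chr3:10505537-10505836, and the window of start 4, chr3:10505535-10505834, overlaps nearly all of that of start 3. ASIC1 lies on the plus strand, with start 1 at chr12:50057920-50058219 and start 3 at chr12:50073163-50073462. Its start 2, at chr12:50070346-50070645, is not shown.
ATP2B2 start 1: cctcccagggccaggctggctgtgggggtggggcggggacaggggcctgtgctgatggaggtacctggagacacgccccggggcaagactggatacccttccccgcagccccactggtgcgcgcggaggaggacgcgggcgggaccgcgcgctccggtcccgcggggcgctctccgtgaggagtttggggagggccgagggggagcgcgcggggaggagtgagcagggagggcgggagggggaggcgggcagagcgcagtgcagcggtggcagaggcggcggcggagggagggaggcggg
ATP2B2 start 2: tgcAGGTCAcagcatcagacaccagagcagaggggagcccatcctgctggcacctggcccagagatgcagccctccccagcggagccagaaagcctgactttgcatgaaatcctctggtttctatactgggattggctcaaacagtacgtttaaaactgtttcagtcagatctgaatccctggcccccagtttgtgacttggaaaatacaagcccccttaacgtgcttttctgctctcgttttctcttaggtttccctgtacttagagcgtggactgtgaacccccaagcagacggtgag
ATP2B2 start 3: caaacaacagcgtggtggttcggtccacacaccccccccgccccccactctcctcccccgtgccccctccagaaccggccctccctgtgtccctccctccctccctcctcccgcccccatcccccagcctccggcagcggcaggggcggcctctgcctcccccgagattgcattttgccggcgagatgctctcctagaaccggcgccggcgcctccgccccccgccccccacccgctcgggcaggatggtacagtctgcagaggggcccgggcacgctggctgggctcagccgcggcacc
ASIC1 start 1: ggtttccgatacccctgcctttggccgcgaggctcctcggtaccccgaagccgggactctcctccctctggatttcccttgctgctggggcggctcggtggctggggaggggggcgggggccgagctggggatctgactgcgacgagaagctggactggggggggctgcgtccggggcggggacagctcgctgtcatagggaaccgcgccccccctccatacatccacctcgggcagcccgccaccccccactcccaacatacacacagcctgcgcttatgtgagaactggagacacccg
ASIC1 start 3: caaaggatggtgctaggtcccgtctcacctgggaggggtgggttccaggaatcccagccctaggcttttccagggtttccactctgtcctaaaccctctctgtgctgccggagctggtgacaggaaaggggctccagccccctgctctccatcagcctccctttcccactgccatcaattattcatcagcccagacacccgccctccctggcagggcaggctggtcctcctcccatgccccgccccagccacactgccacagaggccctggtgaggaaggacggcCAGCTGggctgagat

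The starts of 1 gene had unlike base composition. ATP2B2 start 1 was 76.7% G or C with 30 CpG dinucleotides and start 3 was 74.0% with 24, whereas start 2 was 52.3% with 6, beside a median of 14 CpG over all 35116 promoter windows. ASIC1 start 1 was 68.7% G or C with 22 CpG, and ASIC1 start 3 was 63.0% with 5. ASIC1 start 2, not shown, was 56.0% with 6. Of the 14 windows, ATP2B2 start 2 held 1 AGGTCA and ASIC1 start 3 held 1 CAGCTG, and the other 12 held none of the 4 motifs. Over all windows, 13.8% held AGGTCA, 17.9% held CAGCTG, 1.63% held TTTCCCGC and 0.652% held TTTGGCGC. A match is a string of letters and was not tested as a site, and the counts do not tell which start was used.

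Sequencing depth lay between 19515779 and 31620821 counted reads a sample, and 3 reads, the smallest count taken as detected, were worth 0.0949 to 0.154 CPM (counts per 1000000 counts of the library). In a principal component analysis PC3, with 10.8% of the variance, set the first 2 replicates of each group apart from the last 2, so values from replicates 1 and 2 and from replicates 3 and 4 are also given. Adrenergic markers of neuroblastoma were present in every group, with 8 of 8 above 1 CPM on average and a summed level of 5081 to 5573 CPM in DMSO and 4940 to 5904 in RA, against 8000 to 9235 in PB and 6431 to 8544 in PB+RA. The 7 mesenchymal markers measured summed to 1050 to 1300 CPM in DMSO and 1839 to 2297 in RA, against 886 to 1063 in PB and 1117 to 1563 in PB+RA. The adrenergic and mesenchymal sums each rest mostly on a few genes. Within each list the genes did not all move the same way between groups. SOX10, which defines Schwann cell precursors, averaged at most 0.0121 CPM in any group, with the 5 markers of that type measured summing to 18.4 to 54.6 CPM. The 3 leukocyte markers measured summed to 3.40 to 6.55 CPM, nearly all from CD68. The part of these markers in the results below was not tested. In bulk RNA, a change in the number of cells of a kind and a change in RNA per cell cannot be told apart.

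ASIC4 spans chr2:220378892-220403494 on the plus strand, in the GENCODE gene models on GRCh37, the build of the files. Its levels in replicates 1 to 4 were 9.93, 7.17, 8.41 and 8.90 CPM in DMSO and 18.1, 17.5, 12.5 and 12.4 CPM in RA. In PB the levels were 85.4, 88.7, 89.3 and 76.8 CPM, and in PB+RA they were 158, 162, 126 and 103 CPM. The 4 groups stood in the order DMSO, RA, PB, PB+RA with no overlap between any of them, and replicates 1 and 2 were the highest samples of both RA groups.

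Palbociclib alone went with 85.1 ± 5.78 CPM of ASIC4 against 8.60 ± 1.14 in vehicle (SD, n = 4), a ratio of 9.88 and a log2 difference of 3.30 ± 0.17 (SE), which is the value that chose the gene. The same drug on top of RA, a comparison that shares no sample with it, gave 137 ± 27.9 CPM against 15.1 ± 3.08. ASIC4 rose there by 3.16 ± 0.16 on the log2 scale (edgeR quasi-likelihood test, adjusted p = 3.49e-10), with all 4 pairs of like-numbered samples between 3.06 and 3.32. In replicates 1 and 2 alone the log2 change was 3.15, and in replicates 3 and 4 alone it was 3.19. For this and every other member, the test of PB+RA against RA is still not independent of the choice. The fit took 1 estimate of spread from all 16 samples, and members were chosen with earlier results of these data known. RA alone was followed by a smaller rise, of 0.81 ± 0.17 (adjusted p = 0.00155). That comparison uses the vehicle samples of the contrast that chose the gene. The rise was 1.04 in replicates 1 and 2 and 0.48 in replicates 3 and 4. The latter was below the minimum of 0.5 set for a call.

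ASIC1, at chr12:50451331-50477394 on the plus strand, was the channel gene with the highest level per kb of exon in all groups. It stood at 72.3, 68.2, 72.4 and 74.8 CPM in DMSO and at 81.0, 80.9, 87.2 and 81.1 CPM in RA. Under PB it stood at 161, 157, 139 and 139.6 CPM, and under PB+RA at 276, 239, 197 and 186 CPM. No sample of either palbociclib group was below any sample without palbociclib, PB and PB+RA did not overlap, and within both the first 2 replicates were the higher ones.

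The ratio of means between PB and DMSO was 2.07 for ASIC1, a log2 difference of 1.05 ± 0.097. Between PB+RA and RA, with 224 ± 41.2 CPM against 82.5 ± 3.08, ASIC1 rose by 1.43 ± 0.098 (adjusted p = 4.75e-09). This change was 1.65 in replicates 1 and 2 and 1.18 in replicates 3 and 4, past both thresholds in each pair. For RA alone the log2 difference was 0.19 ± 0.097 (adjusted p = 0.14), which did not pass the test although the 4 RA samples were all above the 4 vehicle samples.

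ASIC3 covers chr7:150745379-150749843 on the plus strand. In DMSO it was read at 14.2, 10.5, 8.76 and 9.37 CPM and in RA at 10.3, 11.6, 9.31 and 10.1 CPM. In PB the readings were 15.8, 16.8, 11.2 and 11.3 CPM and in PB+RA 23.4, 24.7, 14.7 and 15.5 CPM. DMSO and RA overlapped, PB overlapped with DMSO, and PB+RA was above DMSO and RA in every sample, with replicates 1 and 2 again the higher ones in both palbociclib groups. ASIC3 rose by 0.90 ± 0.19 when palbociclib was added to RA (adjusted p = 0.000897), by 1.11 in replicates 1 and 2 and by 0.63 in replicates 3 and 4. Palbociclib alone gave a log2 difference of 0.36 ± 0.19 from DMSO, and RA alone gave -0.06 ± 0.20 (adjusted p = 0.833).

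ASIC2, at chr17:31340105-32501983 on the minus strand, was close to the limit of detection. It had 11, 16, 15 and 10 reads in DMSO, 10, 2, 16 and 19 in RA, against 6, 3, 14 and 17 in PB and 33, 39, 32 and 21 in PB+RA. At the level of CPM the PB+RA samples, at 1.31, 1.73, 1.29 and 1.08, were above all other samples, whose highest was 0.856. Adding palbociclib to RA gave a log2 change of 1.46 ± 0.45 (adjusted p = 0.0118), but it was 2.59 in replicates 1 and 2 and 0.71 in replicates 3 and 4 (adjusted p = 0.0874 in the latter). ASIC2 shares 164 exon bases with LINC01989 and 23 with another long noncoding RNA on its own strand, and 151 and 725 with a pair on the opposite strand. Its counts are uncertain, through the RNAs of its own strand whatever the strand setting of the counting, and through the others because that setting is not given in the sources used here.

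**Figure D1:**
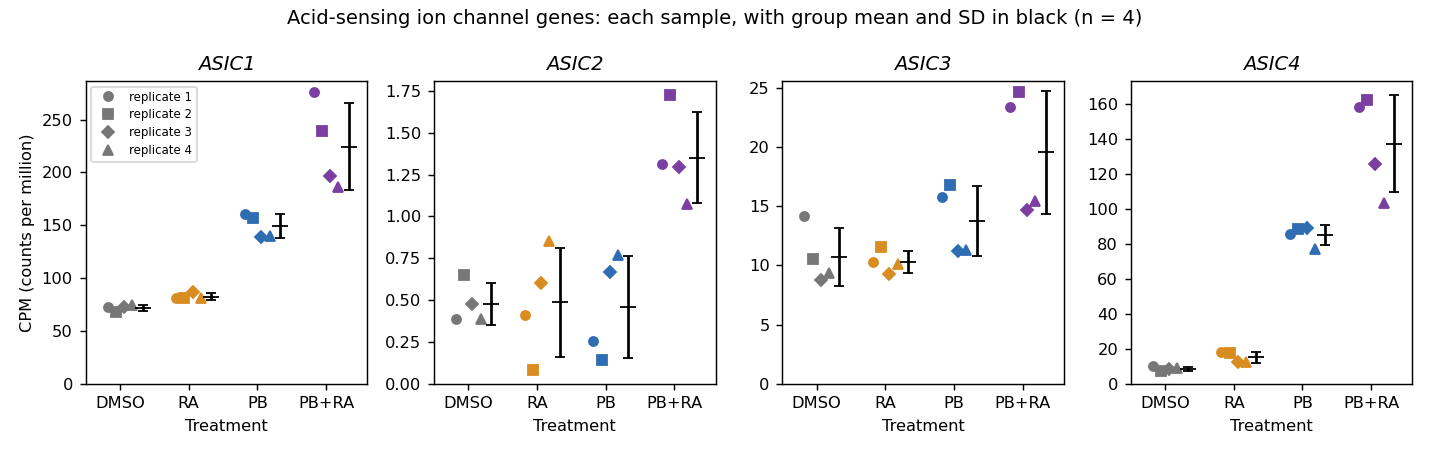
CPM of the 4 ASIC genes (vertical axes, linear, 1 panel a gene) in each of the 16 samples by group, with points for samples shaped by replicate number and bars for the group mean ± SD. ASIC4 lies between 7.17 and 18.1 CPM in all samples without palbociclib and between 76.8 and 162 CPM in all samples with it.

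ATP2B2, on the minus strand at chr3:10365707-10749692, was the pump gene with the largest differences between groups. In DMSO it stood at 2.77, 1.43, 3.61 and 2.28 CPM and in RA at 3.73, 3.36, 4.30 and 2.84 CPM. In PB it stood at 27.8, 23.8, 22.1 and 16.7 CPM and in PB+RA at 29.7, 26.2, 22.5 and 20.6 CPM. The samples fell into a low set without palbociclib and a high set with it, with overlap inside each set and none between the sets.

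Between PB and DMSO the ratio of means for ATP2B2 was 8.95, with a log2 difference of 3.14 ± 0.23, the other value that led to the choice of these families. Between PB+RA and RA, at 24.7 ± 4.06 CPM against 3.55 ± 0.614, ATP2B2 rose by 2.78 ± 0.22 (adjusted p = 3.47e-08), by 2.96 in replicates 1 and 2 and by 2.57 in replicates 3 and 4. RA alone, against the vehicle samples that also served in the choice, gave 0.47 ± 0.24 (adjusted p = 0.134). RA added to palbociclib gave 0.11 ± 0.20 (adjusted p = 0.711), so neither comparison of RA passed for this gene.

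ATP2B3, at chrX:152783100-152848397 on the plus strand, was the other neuronal pump. Its levels were 4.75, 2.20, 4.68 and 4.64 CPM in DMSO and 3.40, 2.39, 4.75 and 3.24 CPM in RA. They were 13.3, 9.92, 15.97 and 11.2 CPM in PB and 8.23, 5.05, 11.9 and 8.92 CPM in PB+RA. Every palbociclib sample was above every sample without it, replicate 2 was the lowest sample of all 4 groups, and PB+RA was below PB in each like-numbered pair.

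Palbociclib on top of RA was followed by a rise of ATP2B3 of 1.28 ± 0.28 on the log2 scale (adjusted p = 0.0011), beside a log2 difference of 1.63 ± 0.27 for palbociclib alone. RA added to palbociclib gave -0.59 ± 0.27 (adjusted p = 0.0911), which did not pass. With the replicate number as a block in the fit, which takes out what like-numbered samples share, the same difference was -0.62 ± 0.11 (adjusted p = 9.07e-05) and passed. The highest mean level of ATP2B3 was that of PB alone, at 12.6 ± 2.64 CPM against 8.52 ± 2.80 in PB+RA.

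ATP2B1, on the minus strand at chr12:89981826-90103143, is the widely expressed pump and had the highest level per kb of its family in all groups. Its samples stood at 106, 110.4, 128 and 131 CPM in DMSO and at 133, 139.7, 165 and 178 CPM in RA. In PB they stood at 110.2, 108, 92.3 and 101 CPM, and in PB+RA at 101, 111, 101 and 123 CPM. RA samples were all above those of the other 3 groups, which overlapped with each other.

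When palbociclib was added to RA, ATP2B1 fell by 0.52 on the log2 scale, with an SE of 0.097 (adjusted p = 0.000261), and was the 1 member called lower. This fall was near the fold minimum: it was -0.38 in replicates 1 and 2 and -0.63 in replicates 3 and 4. RA alone was followed by 0.36 ± 0.096 (adjusted p = 0.00799), below the fold minimum. Palbociclib alone gave -0.21 ± 0.097 against DMSO. ATP2B1 shares 148 exon bases with its antisense gene ATP2B1-AS1, whose mean over the 16 samples was 2.41 CPM beside 121 for ATP2B1.

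ATP2B4, at chr1:203595960-203713209 on the plus strand, was the other pump of broad expression. It was read at 21.4, 19.0, 19.7 and 22.6 CPM in DMSO and at 25.8, 22.2, 27.0 and 30.1 CPM in RA. Its readings were 26.0, 20.3, 23.3 and 22.6 CPM in PB and 34.2, 27.0, 40.04 and 45.1 CPM in PB+RA. PB+RA was above DMSO and PB in every sample and overlapped with RA by its replicate 2. RA added to palbociclib was followed by a rise of 0.63 ± 0.13 (adjusted p = 0.00114), of 0.39 in replicates 1 and 2 (adjusted p = 0.0775) and 0.86 in replicates 3 and 4. Palbociclib on top of RA gave 0.46 ± 0.13 (adjusted p = 0.00663), below the fold minimum, and palbociclib alone gave 0.16 ± 0.13.

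**Figure D2:**
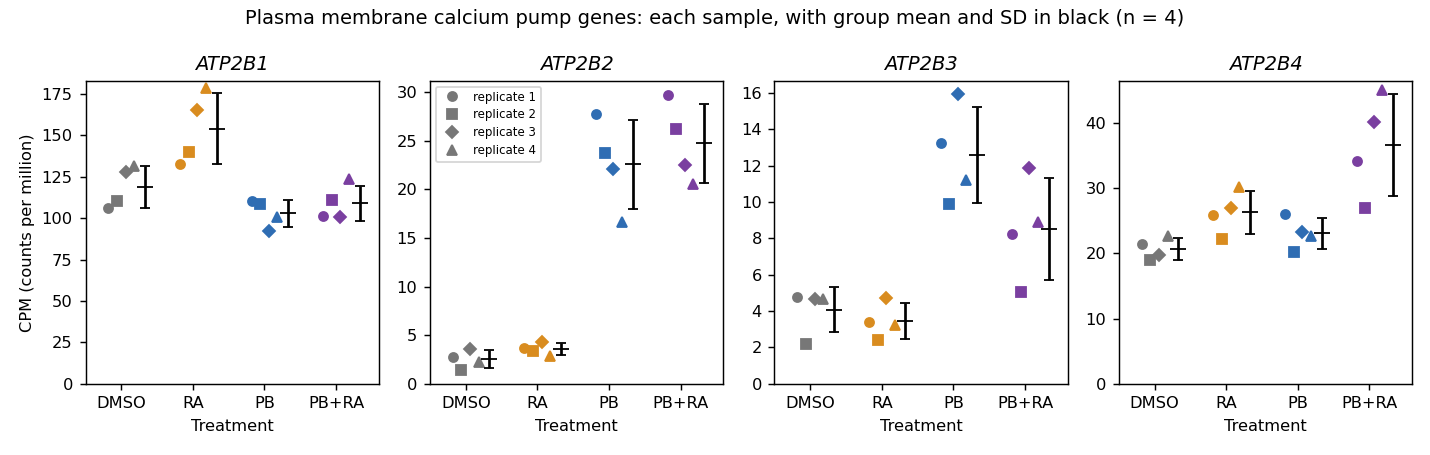
CPM of the 4 ATP2B genes (vertical axes, linear, 1 panel a gene) in each of the 16 samples by group, with points for samples shaped by replicate number and bars for the group mean ± SD. ATP2B2 is at most 4.30 CPM without palbociclib and at least 16.7 CPM with it, whereas ATP2B1 is highest in RA alone.

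Levels of different genes were compared per kb of merged exons, as CPM per kb. In DMSO, ASIC1 and ATP2B1 led at 12.5 ± 0.476 and 12.5 ± 1.33 CPM per kb, with overlapping ranges. They were followed by ASIC3 at 3.90 ± 0.884, ATP2B4 at 2.17 ± 0.173 and ASIC4 at 1.64 ± 0.218. ATP2B3 at 0.389 ± 0.119 and ATP2B2 at 0.246 ± 0.0888 overlapped, and ASIC2 was last at 0.0806 ± 0.0211.

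In PB the order of levels per kb began with ASIC1 at 25.9 ± 2.01 and ASIC4 at 16.2 ± 1.10, which put ASIC4 above ATP2B1 at 10.8 ± 0.855. ATP2B2 at 2.20 ± 0.449 stood beside ATP2B4 at 2.43 ± 0.250, with overlapping ranges, and above ATP2B3 at 1.20 ± 0.252. In PB+RA the order was the same, from ASIC1 at 39.1 ± 7.17 and ASIC4 at 26.1 ± 5.31 to ASIC2 at 0.229 ± 0.0461. In RA, ATP2B1 led at 16.2 ± 2.25, overlapping with ASIC1 at 14.4 ± 0.537, and ASIC4 at 2.89 ± 0.587 overlapped with ATP2B4 at 2.77 ± 0.343. With the length of the longest transcript in place of merged exons, ATP2B4 and ASIC4 changed places in DMSO and ATP2B2 and ATP2B3 in RA.

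The 2 families differed in how their summed level moved. The ASIC genes together stood at 18.1 ± 1.13 CPM per kb in DMSO and 21.1 ± 0.572 in RA, against 47.2 ± 3.56 in PB and 72.6 ± 13.9 in PB+RA. The ATP2B genes together stood at 15.3 ± 1.49, 19.6 ± 2.57, 16.6 ± 1.20 and 18.5 ± 1.39 in the same order. Inside the pump family the make-up differed more than the sum did. ATP2B2 made up 1.60% ± 0.531 of the ATP2B level per kb in DMSO and 1.79% ± 0.388 in RA, against 13.1% ± 1.93 in PB and 13.2% ± 2.82 in PB+RA. ATP2B1 made up 81.6% ± 1.88 and 82.4% ± 1.44 without palbociclib and 65.0% ± 3.24 and 61.8% ± 3.69 with it. Within the channel family, ASIC4 made up 9.01% ± 0.726 in DMSO and 13.6% ± 2.49 in RA, against 34.4% ± 2.17 in PB and 36.0% ± 1.96 in PB+RA, while ASIC1 made up 69.2% ± 3.77 in DMSO and 54.0% ± 2.28 in PB+RA. These shares rest on the contrast that chose ASIC4 and ATP2B2 and are a description.

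**Figure D3:**
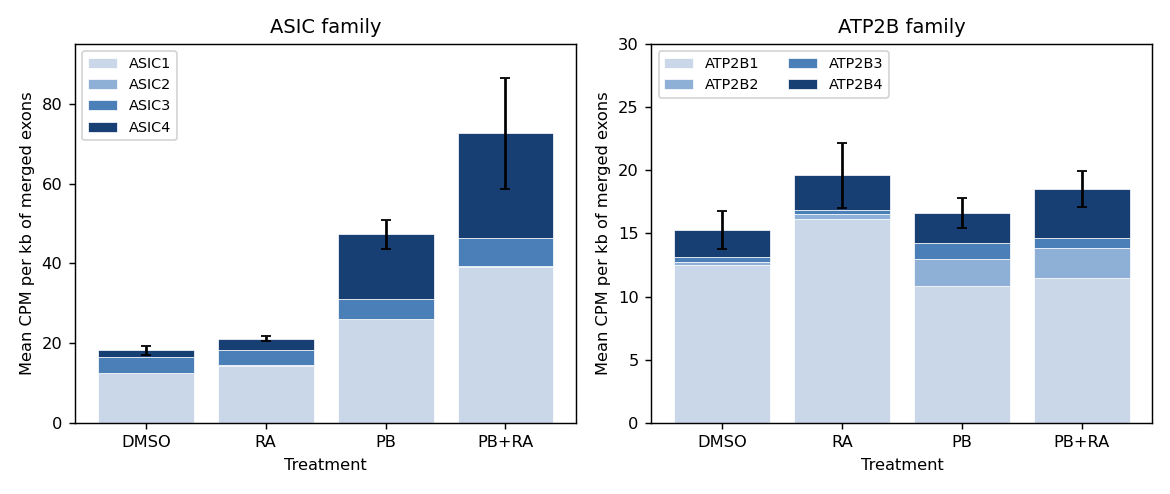
Mean CPM per kb of merged exon length, stacked by gene for each family, in the 4 groups (n = 4 each), with bars for the SD of the family's sum and ASIC2 too low to be seen. The ASIC sum goes from 18.1 in DMSO to 72.6 in PB+RA, while the ATP2B sum stays between 15.3 and 19.6 with a larger ATP2B2 part in both palbociclib groups.

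Counted over the members, a call needs an adjusted p below 0.05 over all 15415 genes and a log2 change above 0.5 in size. In PB against DMSO, 4 members (ASIC1, ASIC4, ATP2B2 and ATP2B3) were past both thresholds upward, where 16.9% of all tested genes were, and 0 downward, where 11.3% were. That contrast chose the families, so nothing is read from the count. In PB+RA against RA, 6 of the 8 members rose (ASIC1, ASIC2, ASIC3, ASIC4, ATP2B2 and ATP2B3), where 14.9% of all tested genes did, and 1 fell (ATP2B1), where 14.1% did. The median log2 change of all tested genes was 0.00264 in this comparison.

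RA against DMSO uses the vehicle samples of the choosing contrast. It gave 1 member called higher, ASIC4, beside 10.8% of all tested genes, and 0 called lower, beside 2.54%. A share of 1 in 8 is near that background. PB+RA against PB shares the PB samples with the contrast that chose the members. It gave 4 members called higher (ASIC1, ASIC2, ASIC4 and ATP2B4), against 9.02% of all tested genes, and 0 called lower, against 7.27%. ASIC1 rose there by 0.56 ± 0.096 (adjusted p = 0.000245), ASIC2 by 1.52 ± 0.46 (adjusted p = 0.0162) and ASIC4 by 0.66 ± 0.15 (adjusted p = 0.00214). ASIC3 gave 0.48 ± 0.19 (adjusted p = 0.0594) and ATP2B1 0.05 ± 0.097 (adjusted p = 0.703). In replicates 3 and 4 alone the difference was 0.44 for both ASIC1 and ASIC4, below the fold minimum, against 0.68 and 0.86 in replicates 1 and 2.

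PB+RA against DMSO uses the vehicle samples of the choosing contrast. There 7 members were called higher, all but ATP2B1, beside 24.0% of all tested genes, and 0 were called lower, beside 17.9%. The 7 had ranges that did not overlap with vehicle. The share of all tested genes with such ranges was not counted, so nothing is read from this. ASIC4 was at 3.97 ± 0.17 (adjusted p = 1.61e-11), ATP2B2 at 3.25 ± 0.23 (adjusted p = 3.29e-09) and ASIC1 at 1.62 ± 0.098 (adjusted p = 4.43e-10). The changes of ASIC2, ATP2B3, ASIC3 and ATP2B4 were 1.48 ± 0.44, 1.03 ± 0.28, 0.84 ± 0.19 and 0.79 ± 0.13. ATP2B1 gave -0.15 ± 0.097 (adjusted p = 0.171).

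**Figure D4:**
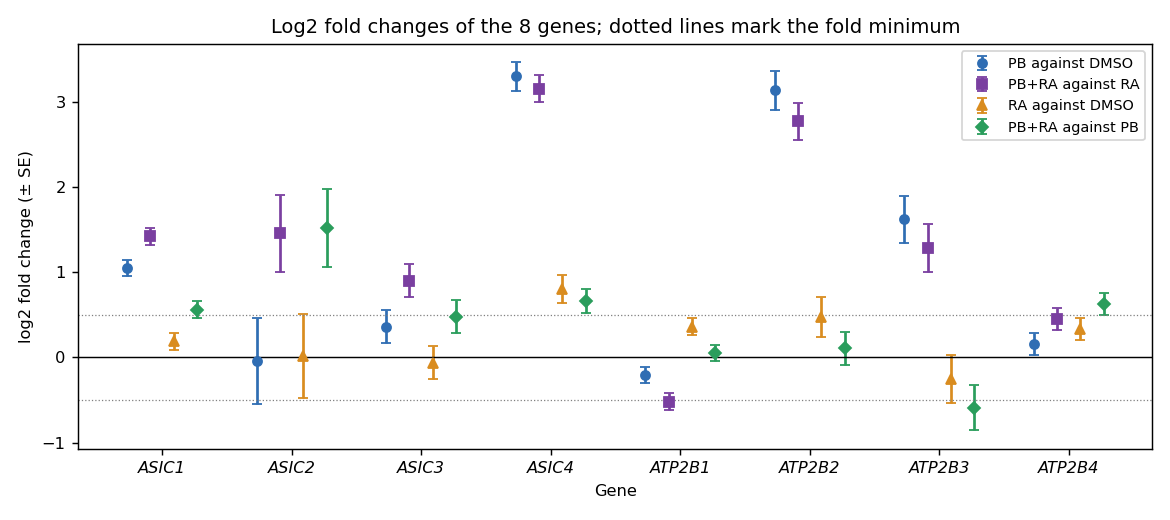
Log2 fold change (vertical axis, bars for the SE) of the 8 members (horizontal axis) in 4 comparisons of the groups, n = 4 samples a group, with dotted lines at the fold minimum. ASIC4 and ATP2B2 lie at 3.30 and 3.14 for PB against DMSO, a contrast shown as a description, and at 3.16 and 2.78 for PB+RA against RA.

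The effect of palbociclib can be set side by side without and with RA. The difference of both effects, with RA minus without, was 0.37 ± 0.14 for ASIC1, 0.54 ± 0.27 for ASIC3, 1.50 ± 0.68 for ASIC2 and -0.14 ± 0.22 for ASIC4. For the pumps it was -0.31 ± 0.14 for ATP2B1, -0.37 ± 0.31 for ATP2B2, -0.34 ± 0.39 for ATP2B3 and 0.30 ± 0.18 for ATP2B4. It contains the contrast that chose the members and is given without a test. The value for ASIC2 was 3.91 in replicates 1 and 2 and 0.03 in replicates 3 and 4, so it rests on the first pair, in which PB held 6 and 3 reads. For ATP2B4 the values were 0.14 and 0.48 in these pairs of replicates, and for ATP2B2 they were -0.63 and -0.08.

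Genes with the most similar profile over the 16 samples were found by the root mean square difference of centred log2 CPM, over the 9996 genes that averaged 10 CPM or more. This likeness includes the samples that chose the members and is a description. ASIC4 and ATP2B2 differed from each other by 0.37. The genes closest to ASIC4 were EMILIN3 at 0.456, the long noncoding RNA MIR7-3HG at 0.466 and PIK3IP1 at 0.508, where the median over all genes was 1.69. For ATP2B2 they were MIR7-3HG at 0.368, PIK3IP1 at 0.452 and ARRDC4 at 0.495, beside a median of 1.55. PIK3IP1, an inhibitor of phosphoinositide 3-kinase, stood at 7.64 CPM in DMSO and 14.3 in RA, against 43.5 in PB and 63.3 in PB+RA.

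Other genes of calcium and proton handling were followed as 7 lists with 51 tested genes. In PB+RA against RA, 10 of the 51 were called higher and 8 lower, beside 14.9% and 14.1% of all tested genes, and their median log2 change of 0.06 stood beside 0.00 for all tested genes. In RA against DMSO, 7 were called higher and 2 lower, beside 10.8% and 2.54% of all tested genes. The lists were chosen with results of these data known, and their counts, here and list by list, are a description to be read beside these shares.

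Among 8 tested calcium pumps and exchangers of other families, 1 rose and 2 fell with palbociclib on top of RA. SLC8A2, a neuronal sodium-calcium exchanger of the plasma membrane, rose by 1.35 ± 0.22 (adjusted p = 8.84e-05), whereas ATP2A3, a calcium pump of the endoplasmic reticulum, was at -0.75 ± 0.23 (adjusted p = 0.012) and the mitochondrial exchanger gene SLC8B1 at -0.73 ± 0.16 (adjusted p = 0.00103). Of 6 partners of the plasma membrane pumps, 1 rose, NPTN, which encodes neuroplastin, an obligatory subunit of these pumps, by 0.52 ± 0.056 (adjusted p = 7.86e-07). No partner was called in RA against DMSO. The 5 tested genes for cytosolic calcium binding proteins gave 0 calls in either comparison.

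Of 16 genes for store release and calcium entry, 3 rose and 2 fell in PB+RA against RA. ITPR3, an inositol trisphosphate receptor, was at -2.73 ± 0.35 (adjusted p = 5.06e-06). MCUB, a subunit that dampens the mitochondrial uniporter, was at -2.54 ± 0.33 (adjusted p = 6.94e-06). Both falls were at low levels, with ITPR3 at 3.26 CPM in RA and 0.496 in PB+RA, and MCUB at 2.96 and 0.510. ITPR1, the main neuronal receptor of this kind, rose by 0.67 ± 0.13 (adjusted p = 0.000282), from 66.4 CPM in RA to 107.5 in PB+RA. RA alone gave 3 genes higher and 2 lower in this list. MCUB was at 1.06 ± 0.29 (adjusted p = 0.00906) and ITPR1 at -0.91 ± 0.13 (adjusted p = 5.72e-05) in that comparison, both opposite in sign to PB+RA against RA, which shares the RA samples. ORAI3, a subunit of store-operated channels, was at 1.05 ± 0.18 (adjusted p = 0.000369).

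Among 4 tested degenerin relatives and channel partners, 2 rose and 1 fell with palbociclib on top of RA. STOML1, a stomatin-like protein known to act on ASIC channels, rose by 1.07 ± 0.13 (adjusted p = 5.34e-06) and SCNN1D, an epithelial sodium channel subunit, by 0.61 ± 0.19 (adjusted p = 0.0134), while STOM was at -0.54 ± 0.066 (adjusted p = 3.21e-06). RA alone gave 0 calls here.

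Of 5 tested genes for other proton sensors, 1 rose and 2 fell in PB+RA against RA. The capsaicin receptor gene TRPV1 was at 0.71 ± 0.22 (adjusted p = 0.0129). In RA against DMSO, 3 of this list rose, among them the proton-activated chloride channel gene PACC1 by 0.71 ± 0.092 (adjusted p = 2.62e-05). Of 7 tested genes for acid extrusion, 2 rose and 1 fell with palbociclib on top of RA. SLC9A5, a sodium-proton exchanger of neurons, rose by 0.85 ± 0.20 (adjusted p = 0.00228) and SLC4A8, a sodium-driven bicarbonate exchanger, by 0.57 ± 0.11 (adjusted p = 0.000461). The lactate and proton carrier gene SLC16A3 was at -0.72 ± 0.18 (adjusted p = 0.00352), and was the 1 gene of its list called in RA against DMSO, at 0.52 ± 0.18 (adjusted p = 0.0348).

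**Figure D5:**
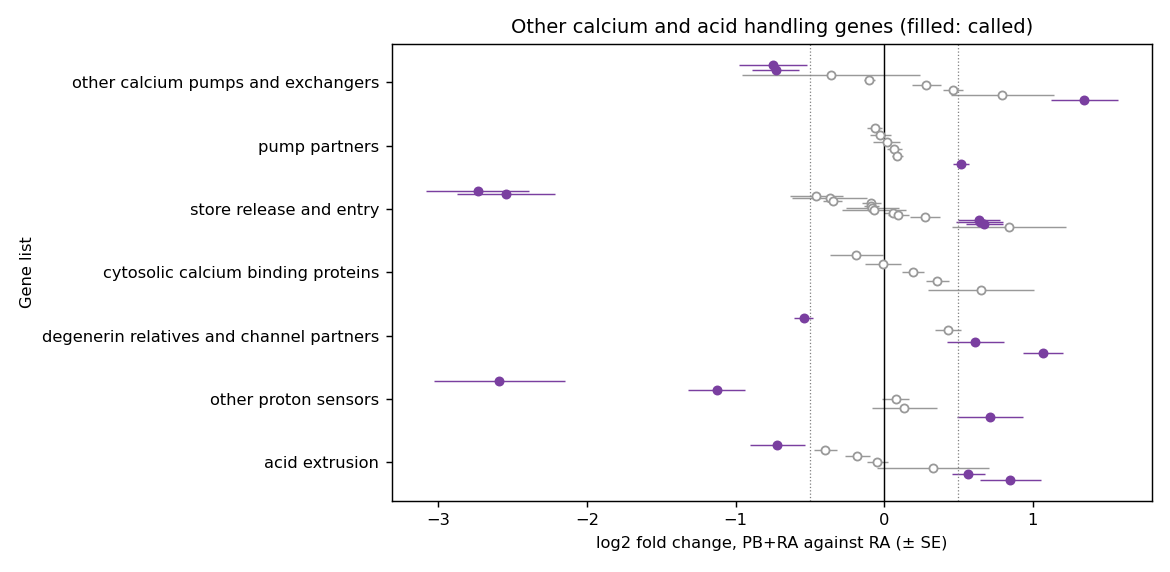
Log2 fold change in PB+RA against RA of every tested gene in the 7 lists, 1 point a gene with a bar for its SE (horizontal axis), 1 row a list, with filled points for genes called. Of 51 genes, 10 are called higher and 8 lower, and the lists spread to both sides of 0.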

How the data were processed

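Counts per gene and CPM (counts per 1000000) were deposited by the authors as tables of 16 columns, 1 a sample. Per the labels and the submitters' processing notes, directional libraries of polyadenylated RNA were trimmed with Trim Galore 0.6.4 and aligned to hg19 with STAR 2.6.1d. The annotation release and strand setting of the counting are not given in the sources used here. The deposited CPM were the counts divided by their column's total. A further deposited table holds the authors' own log2 fold changes and adjusted p-values from DESeq2 1.32.0 and was not used.

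Counts were fitted with edgeR 4.0.16 (TMM factors 0.983 to 1.02, its filter on low counts, quasi-likelihood test) in 1 model of the 4 groups, so all comparisons share 1 estimate of spread. P-values were adjusted by Benjamini-Hochberg over 15415 genes. A call needed an adjusted p below 0.05 and a log2 change above 0.5 in size. Totals ran from 19515779 to 31620821 counts, and the floor covers counting error only. The 8 members were named in full. Also named were the 3 non-member genes most like ASIC4 and ATP2B2, and up to 3 called genes a list with the largest change, among those with at least 1 CPM on average, in PB+RA against RA and in RA against DMSO. Some genes that this rule or the marker lists name are not reported here. Members and lists were chosen with earlier results of these data known.

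Replicate numbers were checked as pairs by correlating deviations from group means. The correlation was 0.330 to 0.573 in all 24 pairs of like-numbered samples and -0.492 to 0.447 in the other 72 pairs. These ranges overlap. Like-numbered samples were set side by side as pairs, and the replicate block was run as an alternative fit. The main fit has no replicate term, so its SEs and p-values leave the pairing out. Alternatives were size factors by another method, other filters, the replicate block, a GC and length correction (95.2% of tested genes had both values), fits of only 2 groups, DESeq2 1.42.0, each pair of replicates alone, each sample left out, and other fold minimums. Lengths came from GENCODE models on GRCh37.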

Additional observations from a re-analysis of the deposited data

Results flagged for a closer look

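Among the 32 sets of 4 samples examined, 1 for each member and group, 2 held a sample far from the other 3, where chance gives about 1 in 20. ASIC1 in RA was highest in replicate 3, at 87.2 CPM, while the other 3 samples lay between 80.9 and 81.1 CPM. ATP2B3 in DMSO was lowest in replicate 2, at 2.20 CPM, while the other 3 samples lay between 4.64 and 4.75 CPM. No explanation of either was tested.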

How the results depend on the processing

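Of 32 results, 8 members in the 4 tested comparisons, 20 kept their side of the thresholds in every alternative fit and 12 changed side at least once, with 0 reversals of a call. ASIC4, ATP2B2, ASIC1, ASIC3 and ATP2B3 in PB+RA against RA were among the 20. Another 4 of the 20, none of them called, took the opposite sign in at least 1 alternative: ASIC2 and ASIC3 in RA against DMSO, and ATP2B1 and ATP2B2 in PB+RA against PB. The replicate block changed the side of 1 member result, ATP2B3 in PB+RA against PB, at -0.62 (adjusted p = 9.07e-05), and of no other. With the block and the GC correction together this was -0.69 (adjusted p = 1.31e-05), and without PB+RA replicate 3 it was -0.80 (adjusted p = 0.0347). The fall of ATP2B1 in PB+RA against RA was lost by size at -0.44 under the GC correction, with or without the block, at -0.38 in replicates 1 and 2, and at -0.47, -0.42 and -0.50 without RA replicate 3, RA replicate 4 or PB replicate 1. ATP2B4 there became called at 0.56 in replicates 3 and 4, 0.54 without RA replicate 4 and 0.56 without PB+RA replicate 2. ASIC2 depends on the replicates in both comparisons against single drugs: in PB+RA against PB it was 0.70 in replicates 3 and 4 (adjusted p = 0.114) and 1.33 without PB replicate 1 (adjusted p = 0.0515). ASIC1 in that comparison was 0.49 under the GC correction, with or without the block, and 0.44 without PB+RA replicate 1, while ASIC3 became called at 0.54 in replicates 1 and 2 and at 0.59, 0.60 and 0.59 without PB replicate 2, PB+RA replicate 3 or PB+RA replicate 4. ATP2B3 in PB+RA against DMSO was 0.90 in replicates 1 and 2 (adjusted p = 0.0791), and ATP2B2 in RA against DMSO became called without DMSO replicate 3 at 0.68 (adjusted p = 0.0373). No cause of these moves was tested beyond what each alternative leaves out or corrects.

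Counts of calls moved mostly with the fold minimum and the pairs of replicates. Members called higher in RA against DMSO numbered 0 in replicates 3 and 4 and with a minimum of 1, 2 with no minimum, and 1 to 2 with 1 sample left out (2 without DMSO replicate 3). In PB+RA against PB, members called lower numbered 1 with the block, 1 with the GC correction and block, and 0 to 1 with 1 sample left out, and members called higher numbered 1 in replicates 3 and 4 and 1 with a minimum of 1. In PB+RA against RA, members called lower numbered 0 under the GC correction, with or without the block, in replicates 1 and 2 and with a minimum of 1, and 0 to 1 with 1 sample left out.

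List genes called higher in PB against DMSO numbered 14 in the main setting, 9 in replicates 3 and 4 and 8 with a minimum of 1. List genes in RA against DMSO numbered 7 higher and 2 lower in the main setting, 14 higher and 4 lower with no minimum, 3 and 0 with a minimum of 1, 4 lower with DESeq2, and 2 to 4 lower with 1 sample left out. For PB+RA against DMSO they numbered 16 higher and 4 lower in the main setting, 10 lower with no minimum, 8 higher and 2 lower with a minimum of 1, and 4 to 7 lower with 1 sample left out. In PB+RA against PB they numbered 5 higher and 4 lower in the main setting, 8 higher and 9 lower with no minimum, 2 and 1 with a minimum of 1, 2 lower in a fit of only these groups, 3 higher in replicates 1 and 2, 2 lower in replicates 3 and 4, and 3 to 5 higher and 2 to 4 lower with 1 sample left out. For PB+RA against RA they numbered 10 higher and 8 lower in the main setting, 17 higher with no minimum, and 2 higher and 4 lower with a minimum of 1.

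Over all genes with no minimum, 4378 were higher and 3891 lower in PB against DMSO, 2893 and 2527 in RA against DMSO, 4839 lower in PB+RA against DMSO, 2652 and 3225 in PB+RA against PB, and 4090 and 4301 in PB+RA against RA. With a minimum of 1 these were 1140 and 546, 827 and 87, 2010 and 1110, 669 and 389, and 892 and 884. In replicates 3 and 4, 689 genes were lower in RA against DMSO, beside 392 in all replicates. At 2 to 39 reads a sample, with the lowest sample under the floor of 3 reads, depth limits ASIC2 more than the other members.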
